A study of Mus musculus with 24 samples.

Results

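Ucp1 and the genes that mark brown adipocytes were followed in the brown adipose tissue (BAT) of mice kept warm or cold. The set was a list of 9 genes (Ucp1, Dio2, Prdm16, Ebf2, Irf4, Zic1, Kcnk3, Otop1 and Letmd1), taken by gene symbol from a table of raw counts of 12615 genes. Of these, 7 were analysed, and all 7 passed the filter on low counts, as did 12485 genes in all. Irf4 and Zic1 were not analysed here. RNA was measured in 24 libraries, 1 per mouse, by sequencing short tags from the 3′ ends of transcripts, so that counts do not grow with gene length. The mice formed 4 groups of 6 by labelled genotype and temperature. Mice of both genotypes carried loxP-flanked (fl/fl) alleles of TBLR1 and TBL1, the corepressor subunits encoded by Tbl1xr1 and Tbl1x, and all were raised at 22°C and injected with tamoxifen 3 weeks before the temperature protocol. Those labelled BATdKO also carried Ucp1CreERT2, a recombinase that tamoxifen activates and that the Ucp1 promoter drives, so that deletion is directed to cells that use this promoter, and those labelled Cre- lacked it. The warm groups moved straight to 30°C for 4 days. The cold groups passed 1 day each at 18, 16 and 12°C and then 6 days at 8°C. The labels describe females injected at an age of 5 years, whereas the paper's methods give the age in weeks and mention cohorts of both sexes. For the sequenced mice its text describes a shorter cold period, and its figure legend names males.

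UCP1 is the uncoupling protein of the inner mitochondrial membrane that lets protons return without making ATP, so that brown adipocytes release heat. In the cold, sympathetic nerves release noradrenaline onto these cells, and cAMP and its kinase raise transcription of Ucp1 and of Dio2, a deiodinase that converts thyroxine to the active thyroid hormone inside the cell. Prdm16, Ebf2, Irf4 and Zic1 encode regulators of transcription linked to brown fat identity, Kcnk3 encodes a potassium channel and Otop1 a proton channel of the plasma membrane, and Letmd1 encodes a mitochondrial protein; all 3 are known as markers of brown fat.

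Some libraries stood apart before any comparison. Both target genes had more counts under the BATdKO label than under the Cre- label: at 8°C Tbl1xr1 ranged from 33.7 to 44.3 CPM (counts per 1000000 of the normalised library size) in libraries labelled BATdKO and from 18.2 to 24.6 CPM in Cre- libraries (log2 fold change 0.92 ± 0.17 SE, adjusted p = 0.00348, edgeR), and Tbl1x had a log2 fold change of 0.39 ± 0.10 (adjusted p = 0.0633). The excised exons are not given in the labels, and a 3′ tag outside them would not report the deletion, so the deletion could not be checked here. Fewer counts under the BATdKO label were not seen for either gene, and the cause of the higher counts was not tested. A mix-up of labels could not be settled from these values and would turn the sign of the genotype differences below, so that each direction rests on the labels and groups are named as labelled throughout. At 30°C the m6 libraries of both genotypes went against their own groups. Tbl1xr1 was at 38.6 CPM in Cre- m6, against 16.4 to 24.6 CPM in the other 5 Cre- mice, and at 17.0 CPM in the library labelled BATdKO m6, against 29.8 to 42.0 CPM in the other 5. Cre- m4 at 30°C had 699703 counts, whereas the other 23 libraries had 2738613 to 11527643, and Cre- m3 and m1 at 30°C held 8691 and 3799 CPM of 11 skeletal muscle markers, against 7.82 to 1565 CPM elsewhere. The tissue label was checked against markers: all 7 adipocyte markers were detected, with a sum of 989.7 to 6099 CPM, but 7 hepatocyte markers summed to 25538 to 37604 CPM in every library, and both the female Xist (20.5 to 50.2 CPM) and the male Ddx3y (21.8 to 36.5 CPM) were present in all 24. The part of these signals in the results below was not tested. The libraries of each temperature also carry consecutive numbers of their own, so that a difference in preparation cannot be told apart from temperature.

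The promoters of the most responsive pair are shown because cAMP signalling is their known route of induction. RefSeq promoter windows (GRCm38.p6, 250 bases before to 50 after the start) were matched for 5 of the 7 genes. The Ucp1 window lies on chromosome 8 at chr8:83290098-83290397 (plus strand), at the GENCODE start of the gene (chr8:83290352-83298452). The Dio2 window lies at chr12:90738989-90739288 (minus strand), upstream of the shorter GENCODE gene model (chr12:90724552-90738438). Capitals mark TGACG and TGACGTCA, the short and the full cAMP response element, and AGGTCA, the core site of nuclear receptors, all searched on either strand.
Ucp1: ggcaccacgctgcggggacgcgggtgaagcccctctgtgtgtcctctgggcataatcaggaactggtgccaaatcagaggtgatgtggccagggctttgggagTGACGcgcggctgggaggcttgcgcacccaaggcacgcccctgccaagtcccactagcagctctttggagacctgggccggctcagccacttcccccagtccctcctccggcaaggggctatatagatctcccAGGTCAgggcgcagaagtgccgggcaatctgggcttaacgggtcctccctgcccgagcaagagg
Dio2: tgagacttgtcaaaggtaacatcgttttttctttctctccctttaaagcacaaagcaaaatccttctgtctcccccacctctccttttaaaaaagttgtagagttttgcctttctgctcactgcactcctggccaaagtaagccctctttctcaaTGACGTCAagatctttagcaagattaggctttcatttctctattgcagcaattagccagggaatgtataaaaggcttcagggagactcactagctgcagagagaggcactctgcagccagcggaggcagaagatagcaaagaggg
The Dio2 window held the full element TGACGTCA at position -95 from the start, and 1.79% of all 32851 windows held one. The Ucp1 window held the 5-letter TGACG at -147, as did 20.8% of all windows, and AGGTCA at -14, as did 16.3%. TGACG is part of TGACGTCA, so the Dio2 window holds both. The Letmd1 window (chr15:100468761-100469060, plus strand) held AGGTCA at -201 and CCCNNGGG, the core of the EBF motif, at -171, -83 and -8, and 13.7% of all windows held the latter at least once. The windows of Prdm16 and Otop1 held none of the 5 motifs searched, which included AAANNGAAA, the IRF core found in 10.6% of windows. These matches describe letters in the windows, and no binding was measured.

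In the cold, 5 of the 7 genes rose in Cre- mice and the same 5 rose in mice labelled BATdKO: Ucp1, Dio2, Kcnk3, Otop1 and Letmd1. Among all tested genes 5.57% rose in Cre- and 3.76% in BATdKO (edgeR quasi-likelihood test, adjusted p below 0.1). The median log2 fold change of the 7 genes was 1.29 in Cre- and 0.93 in BATdKO, where the medians over all genes were -0.02 and -0.0026. Cold and warm libraries did not overlap at all for 5 of the 7 genes in Cre- mice, as was the case in the upward direction for 2.19% of all genes, and for 3 of 7 (Ucp1, Dio2 and Letmd1) in BATdKO, against 1.75%. Dio2 is included in each of these counts of genes, although it passed the filter on low counts through its cold groups alone. Its part in them is therefore a description. In this bulk tissue a larger share of brown adipocytes and more RNA per cell cannot be told apart.

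**Figure D1:**
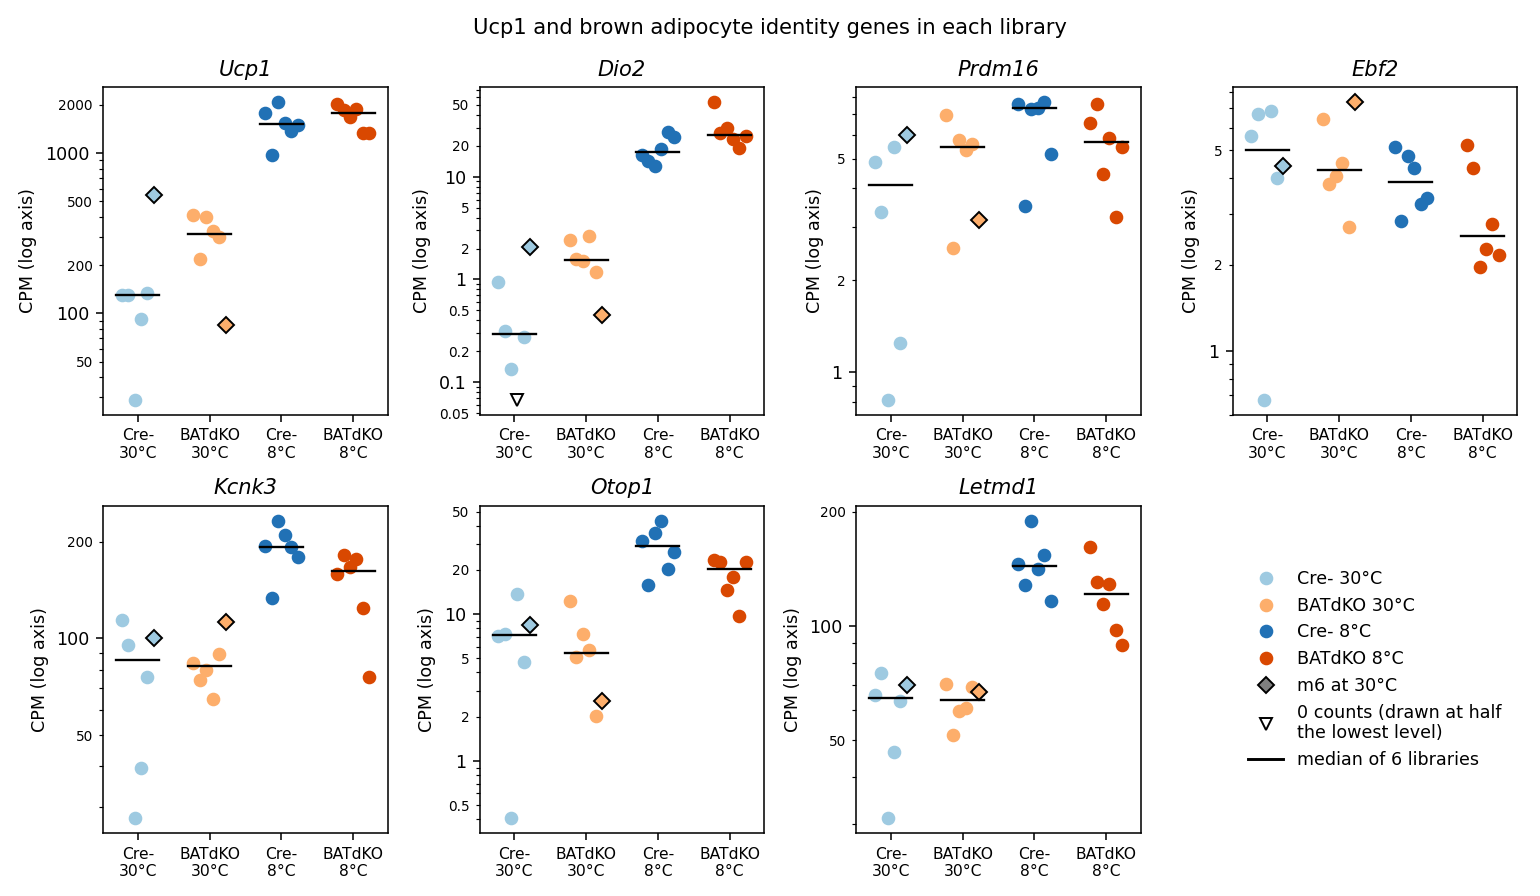
Level of each gene in CPM on a log axis for every library, by labelled genotype and temperature; bars are medians of 6 libraries, diamonds the m6 libraries at 30°C, and the open triangle a library with 0 counts. Ucp1, Dio2, Kcnk3, Otop1 and Letmd1 stand higher at 8°C, and the m6 libraries trade places for Ucp1 and Dio2.

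Ucp1, the heat-producing effector, rose in both genotypes. In Cre- mice at 30°C it was at 129.6, 129.9, 28.9, 91.6, 133 and 548 CPM in m1 to m6. In mice labelled BATdKO at 30°C it was at 412, 217, 398, 327, 300.3 and 84.7 CPM. Hence m6 was the highest library of one warm group and the lowest of the other. At 8°C Ucp1 was at 1781, 968, 2076, 1548, 1378 and 1485 CPM in Cre- mice. The cold BATdKO libraries had 2029, 1866, 1670.4, 1874, 1342 and 1331 CPM. Every cold library was above every warm one of either genotype, and the cold groups overlapped each other. The fitted rise was 8.56-fold in Cre- mice (log2 fold change 3.10 ± 0.44, adjusted p = 2.67e-05) and 5.82-fold in mice labelled BATdKO (2.54 ± 0.43, adjusted p = 0.000389). Without both m6 libraries at 30°C the rise was larger in Cre- mice (3.89 ± 0.28) and slightly smaller in BATdKO (2.34 ± 0.26).

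As a share of all counts, Ucp1 took 0.0185% ± 0.0183 (SD, n = 6) in warm Cre- mice, 0.0300% ± 0.0121 in warm BATdKO, 0.147% ± 0.0333 in cold Cre- and 0.154% ± 0.0210 in cold BATdKO. The order of the 4 groups was the same for the median CPM. Both steps from warm to cold had p = 0.0022 in an exact two-sided permutation test, the smallest that 6 against 6 can give, and 0.0043 after adjustment over the 4 pairwise comparisons. Neighbouring groups within a temperature did not differ beyond their spread (exact permutation test, p = 0.697 at 8°C and 0.229 at 30°C, adjusted 0.697 and 0.306). With both m6 libraries left out at 30°C, the share was 0.0113% ± 0.0050 in Cre- and 0.0341% ± 0.0074 in BATdKO (n = 5 each, exact permutation p = 0.0079, adjusted 0.0106, where 0.0079 is the smallest p that 5 against 5 can give). This setting was chosen after the data had been seen, and it removes the highest Ucp1 library of the one warm group and the lowest of the other, so its outcome is largely fixed by the choice and its p is no independent support.

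Dio2, which makes active thyroid hormone within the cell, had the largest log2 fold change of the set in cold. Warm Cre- mice had only 12, 3, 1, 0, 2 and 20 counts in m1 to m6, or 0.94, 0.31, 0.14, 0, 0.28 and 2.06 CPM. Warm mice labelled BATdKO had 14, 16, 7, 31, 7 and 3 counts, or 2.44, 1.57, 1.497, 2.63, 1.19 and 0.45 CPM. So 4 of 6 warm Cre- libraries and 1 of 6 warm BATdKO libraries were at or under the detection floor of 3 counts, and again m6 was the highest of the one group and the lowest of the other. In the cold Dio2 was at 16.2, 14.2, 12.9, 18.7, 27.0 and 24.5 CPM in Cre- mice. In mice labelled BATdKO it was at 53.2, 26.5, 29.8, 23.4, 19.0 and 24.8 CPM. Cold and warm libraries were fully separated in both genotypes. The log2 fold change was 4.56 ± 0.38 in Cre- (adjusted p = 1.4e-08) and 4.05 ± 0.33 in BATdKO (adjusted p = 1.31e-08), fitted folds of 23.6 and 16.6 whose size depends on the few warm counts. Without both m6 libraries it was 5.29 ± 0.38 in Cre- and 3.86 ± 0.29 in BATdKO. Exons of Dio2 overlap those of Gm26512 on the other strand, and whether reads were counted by strand is not given in the sources used here. Dio2 passed the filter on low counts through the cold groups alone and was not tested when the 2 warm groups were fitted by themselves. Its cold calls are therefore a description. With no filter its log2 fold change was 4.56 in Cre- and 4.05 in BATdKO, and it was called in both.

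Among the regulators of transcription, neither Prdm16 nor Ebf2 passed the test in the cold. Prdm16, a zinc finger co-regulator that holds cells to the brown lineage, was at 4.88, 3.34, 0.81, 5.47, 1.24 and 5.97 CPM in warm Cre- mice and at 7.55, 3.51, 7.29, 7.36, 7.68 and 5.19 CPM in cold ones. In mice labelled BATdKO it was at 6.97, 2.55, 5.77, 5.35, 5.59 and 3.15 CPM when warm and at 6.53, 7.57, 4.46, 5.85, 3.24 and 5.48 CPM when cold. The groups overlapped in both genotypes, although 4 of 6 cold Cre- libraries lay above all warm ones. These values rest on 4 to 77 counts per library. The log2 fold change was 0.89 ± 0.32 in Cre- (95% interval 0.22 to 1.55, adjusted p = 0.111) and 0.20 ± 0.32 in BATdKO (adjusted p = 0.815). The Cre- value crossed the threshold in DESeq2 (0.90, adjusted p = 0.0727) and without both m6 libraries (1.16 ± 0.33, adjusted p = 0.0246). It also did so when Cre- m1 (1.06, adjusted p = 0.0829) or Cre- m6 (1.17, adjusted p = 0.0301) at 30°C, Cre- m2 at 8°C (1.01, adjusted p = 0.0635) or BATdKO m6 at 30°C (0.88, adjusted p = 0.0943) was left out alone. In the other 20 of 24 fits without 1 library it stayed uncalled, and the lowest value was 0.67 without Cre- m3 at 30°C (adjusted p = 0.247). Without Cre- m1 and m3 at 30°C it was 0.79 ± 0.33 (adjusted p = 0.237). Cre- m6 was the highest warm Cre- library for Prdm16, so its omission favours a rise.

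Ebf2, a transcription factor selective for brown adipocytes and their precursors, was the only one of the 7 with a lower mean in the cold in both genotypes. Warm libraries ranged from 0.68 to 6.83 CPM (median 5.01) in Cre- and from 2.71 to 7.36 CPM (median 4.28) in BATdKO. Cold libraries ranged from 2.84 to 5.14 CPM (median 3.87) in Cre- and from 1.96 to 5.23 CPM (median 2.52) in BATdKO. The ranges overlapped in each genotype, and single libraries held as few as 5 counts. The log2 fold change was -0.18 ± 0.31 in Cre- (95% interval -0.82 to 0.46, adjusted p = 0.841) and -0.66 ± 0.33 in BATdKO (-1.34 to 0.01, adjusted p = 0.305). Exons of Prdm16 and Ebf2 each overlap a noncoding gene model on the other strand.

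Both plasma membrane channels rose with cold. Kcnk3, a potassium channel that sets the resting membrane potential, whose exons overlap those of Gm9899 on the other strand, was at 114, 95.4, 27.6, 39.6, 75.8 and 100.4 CPM in warm Cre- mice and at 193, 133, 232, 210.2, 192 and 179 CPM in cold ones. In mice labelled BATdKO it was at 83.8, 74.4, 80.0, 64.7, 89.6 and 113 CPM when warm and at 158, 181, 167, 176, 125 and 75.9 CPM when cold. The Cre- groups were fully separated, and 5 of 6 cold BATdKO libraries lay above all warm ones, the exception being m6. The rise was 2.43-fold in Cre- (log2 fold change 1.28 ± 0.24, adjusted p = 0.000911) and 1.75-fold in BATdKO (0.81 ± 0.24, adjusted p = 0.0501). The BATdKO call was lost when BATdKO m2 at 30°C (adjusted p = 0.114) or BATdKO m2, m3 or m4 at 8°C (adjusted p = 0.115, 0.103 and 0.116) was left out.

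Otop1, a proton channel known as a brown fat marker, was at 7.08, 7.31, 0.41, 13.7, 4.69 and 8.44 CPM in warm Cre- mice, where m3 had 3 counts. Cold Cre- mice had 31.5, 15.7, 35.7, 43.3, 20.2 and 26.7 CPM. In mice labelled BATdKO Otop1 was at 12.4, 5.10, 7.27, 5.69, 2.03 and 2.55 CPM when warm and at 23.5, 22.7, 14.6, 17.9, 9.71 and 22.7 CPM when cold. Only m5 of the cold mice labelled BATdKO fell within the warm range. The rise was 4.79-fold in Cre- (log2 fold change 2.26 ± 0.38, adjusted p = 0.000213) and 3.19-fold in BATdKO (1.67 ± 0.38, adjusted p = 0.00861).

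Letmd1, the mitochondrial gene, varied by 11.2 to 28.3% (coefficient of variation) within groups, the least of the 7 genes in 3 of the 4 groups, BATdKO at 8°C being the exception. It was at 65.8, 75.2, 31.1, 46.5, 63.5 and 69.7 CPM in warm Cre- mice and at 146, 128, 189, 141, 154 and 117 CPM in cold ones. In mice labelled BATdKO it was at 70.1, 51.6, 59.6, 60.7, 69.1 and 67.1 CPM when warm and at 162, 130.2, 114, 129, 97.6 and 89.0 CPM when cold. Cold and warm libraries were fully separated in both genotypes. The rise was 2.44-fold in Cre- (log2 fold change 1.29 ± 0.16, adjusted p = 6.48e-06) and 1.90-fold in BATdKO (0.93 ± 0.16, adjusted p = 0.000584). Letmd1 lies at chr15:100469023-100479164 on the plus strand of GRCm38, and no other annotated exon overlaps its exons.

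Some markers of adipocytes and of other cells also differed with temperature. Of 7 adipocyte markers, 1 was called higher and 1 lower with cold in each genotype. Among all genes 5.57% rose and 3.59% fell in Cre-, and 3.76% and 3.31% in BATdKO. Median Adipoq was 220 CPM warm and 149 CPM cold in Cre-, and 192 and 109 CPM in BATdKO. Median Fabp4 was 571 CPM warm and 1053 CPM cold in Cre-, and 1506 and 1660 CPM in BATdKO. The sum of 5 endothelial markers was 116 to 141 CPM in warm and 147 to 202 CPM in cold Cre- mice, with 3 of the 5 called higher, and 122 to 154 against 142 to 203 CPM in BATdKO, with 2 called higher. The B cell marker Ighm was called higher with cold in BATdKO (log2 fold change 1.01 ± 0.15, adjusted p = 0.000128) and was at -0.31 ± 0.16 in Cre- (adjusted p = 0.322). Of 8 progenitor markers 1 was called lower with cold in each genotype, and in Cre- mice 1 of 11 skeletal muscle markers was called lower and 1 of 4 smooth muscle markers higher. Their part in the cold differences of Ucp1 and the others was not tested. Cre- m3 at 30°C, with the highest muscle marker sum, was the lowest library of its group for 6 of the 7 genes, all but Dio2. Leaving out Cre- m1 and m3 at 30°C gave cold log2 fold changes in Cre- mice of 2.72 for Ucp1, 4.37 for Dio2, 1.204 for Kcnk3, 1.99 for Otop1 and 1.14 for Letmd1, all still called.

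**Figure D2:**
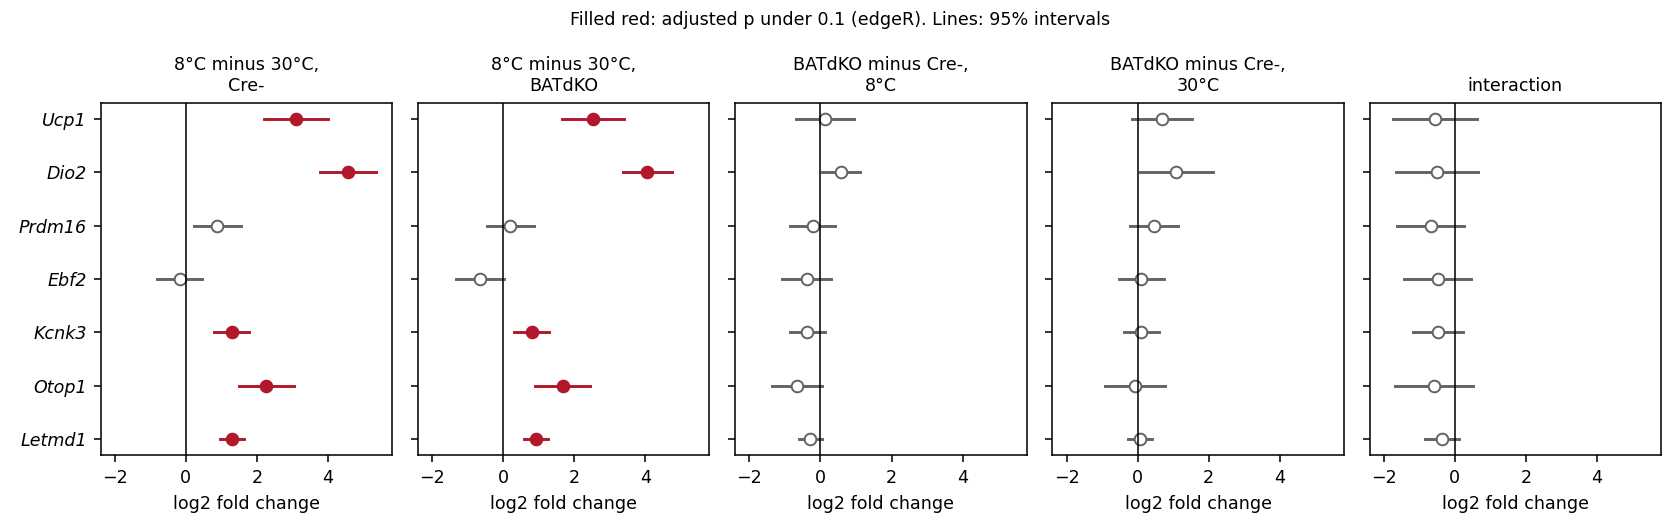
Log2 fold change of each gene with its 95% interval in the 4 pairwise comparisons and the interaction; filled red points passed the adjusted threshold of 0.1. Calls appear in the cold comparisons alone, and all 7 interaction values lie below 0 with intervals that include it.

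Between genotypes at 8°C none of the 7 genes passed the test, where 1.82% of all genes did. Ucp1 had a log2 fold change of 0.13 ± 0.40 in BATdKO against Cre- (95% interval -0.69 to 0.95, adjusted p = 0.98), an interval that spans either direction. Dio2 had a fitted fold of 1.496 (0.58 ± 0.26, interval 0.06 to 1.11, adjusted p = 0.447). All 6 BATdKO libraries lay above the Cre- median for Dio2, but 4 of the 6 lay within the Cre- range. The other 5 genes had negative values: -0.66 ± 0.34 for Otop1 (adjusted p = 0.58), -0.38 ± 0.34 for Ebf2, -0.37 ± 0.24 for Kcnk3, -0.28 ± 0.16 for Letmd1 (adjusted p = 0.638) and -0.22 ± 0.31 for Prdm16. In the edgeR fit of all 24 libraries, 1 of 7 genes (Dio2) had an unadjusted p below 0.05, beside 9.24% of all genes. DESeq2 called 0. With the 2 cold groups fitted by themselves, Otop1 (-0.67), Dio2 (0.54), Kcnk3 (-0.37) and Letmd1 (-0.29) were below 0.05 unadjusted. Ucp1, Prdm16 and Ebf2 were not. No member was called there (lowest adjusted p = 0.114, Otop1), where 477 genes in all were. Without both m6 and Cre- m1, m3 and m4 at 30°C, chosen after seeing the data, Ucp1 at 8°C was 0.13 ± 0.15. No gene of the set had separated groups, against 1.95% of all genes. The only B cell marker found, Ighm, was at 13.1 to 27.4 CPM in cold BATdKO and at 6.82 to 8.52 CPM in cold Cre- mice. Muscle markers summed to 7.82 to 164 CPM against 18.0 to 1565 CPM. The 7 adipocyte markers summed to 2732 to 6099 CPM in cold BATdKO and to 2264 to 3717 CPM in cold Cre- mice. Of these 7, 1 was called higher in BATdKO and 0 lower, where 0.697% and 1.12% of all genes were. Their median log2 fold change was -0.02. The part of all these markers in the values of the set was not tested.

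At 30°C no gene of the set and 0% of all genes passed the test between genotypes in edgeR. By edgeR at an unadjusted p below 0.05, 1 of 7 genes passed, beside 10.4% of all genes; this was Dio2, which its cold counts alone kept in the test, so nothing is read from it. DESeq2 called 90 genes in all but 0 of the set. Ucp1 had a log2 fold change of 0.69 ± 0.41 (interval -0.15 to 1.53, adjusted p = 0.592), and Dio2 of 1.09 ± 0.50 (0.06 to 2.12, adjusted p = 0.44). Prdm16 was at 0.46 ± 0.33, and Ebf2, Kcnk3, Otop1 and Letmd1 lay between -0.07 and 0.11. No gene of the set had separated groups, as held for all but 0.296% of genes.

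The values at 30°C changed with the m6 libraries, whose Tbl1xr1 levels went against their groups. With both left out, a setting chosen after the data had been seen, warm Ucp1 was at 28.9 to 133 CPM in Cre- mice and at 217 to 412 CPM in mice labelled BATdKO, without overlap. Ucp1 was then called higher in BATdKO (log2 fold change 1.67 ± 0.27, adjusted p = 0.000718), and Dio2, with 0 to 12 warm Cre- counts left, had 2.00 ± 0.53 (adjusted p = 0.0369), making 2 of 7 where 4% of all genes were called. Since Dio2 was kept in the test by its cold counts alone, its warm values are a description here and under each setting below. The sum of 7 adipocyte markers moved with Ucp1. At 30°C it was 4405 CPM in Cre- m6 and 1460.1 CPM in the library labelled BATdKO m6. Without these it was 989.7 to 2933 CPM in Cre- and 2377 to 5119 CPM in BATdKO. With all 24 libraries 0 of the 7 were called between genotypes at 30°C, where 0% of all genes were. Single markers differed: median Adipoq was 220 CPM in Cre- and 192 CPM in BATdKO, and median Fabp4 571 and 1506 CPM. The part of these markers in the Ucp1 difference was not tested. Both omitted libraries were at the extremes of their groups in Ucp1 itself, so this Ucp1 call is largely fixed by the choice. Without both m6, Prdm16 was at 0.83 ± 0.35 (adjusted p = 0.264), and the other 4 genes lay between -0.06 and 0.22. Leaving out Cre- m6 alone gave 1.49 for Ucp1 (adjusted p = 0.0163) and 1.83 for Dio2 (adjusted p = 0.0878). Without both m6 and the Cre- libraries m1, m3 and m4, Ucp1 was called (1.33 ± 0.24, adjusted p = 0.00531) and Dio2 was not (2.63 ± 0.80, adjusted p = 0.155). This made 1 of 7 where 1.43% of all genes were called. Only Cre- m2 and m5 remain in that group. Both of these settings again leave out the highest warm Cre- Ucp1 library, and the latter also the lowest warm BATdKO one. Their Ucp1 calls are thus largely fixed by the choice as well and are no independent support. Leaving out Cre- m1 and m3 but keeping both m6 gave 0.32 ± 0.37 for Ucp1 (adjusted p = 0.92).

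**Figure D3:**
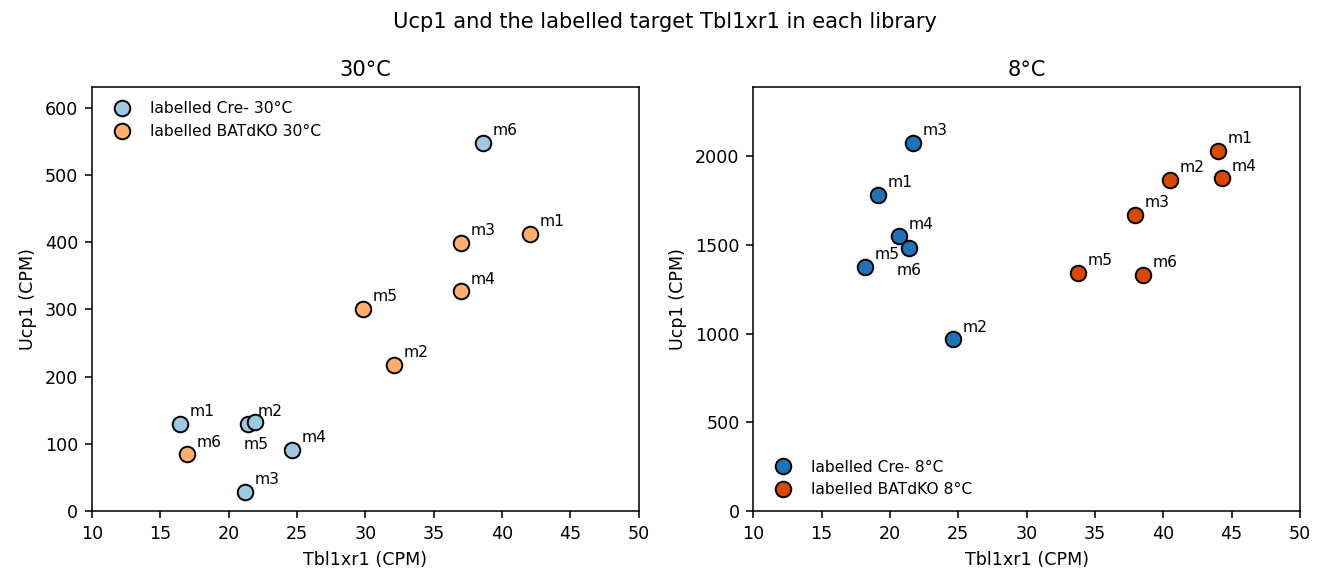
Ucp1 against Tbl1xr1 in CPM for each library at 30°C and at 8°C, coloured by label. At 30°C Cre- m6 (Tbl1xr1 38.6 CPM, Ucp1 548 CPM) lies within the BATdKO range in Tbl1xr1 and above it in Ucp1, and BATdKO m6 (17.0 and 84.7 CPM) lies within the Cre- range in both, whereas at 8°C the labels separate along Tbl1xr1 and overlap in Ucp1.

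The interaction asked whether cold acted differently in the 2 genotypes. All 7 genes had a smaller fitted rise, or a larger fitted fall, in BATdKO, with values from -0.68 (Prdm16) to -0.36 (Letmd1) and a median of -0.51, but none was called, where 0.0961% of all genes were. None had an unadjusted p below 0.05 either, beside 8.05% of all genes, and DESeq2 called 0 of the set. For Ucp1 the interaction was -0.56 ± 0.57 (95% interval -1.73 to 0.61, adjusted p = 0.853). The 7 values share the same 24 libraries, so a common sign is no independent support. The B cell marker Ighm was called for the interaction (1.32 ± 0.22, adjusted p = 0.0185), and its part was not tested. Without both m6 libraries at 30°C the Ucp1 interaction was -1.55 ± 0.35 (adjusted p = 0.0651), 1 of 7 called where 0.352% of all genes were. With m1, m3 and m4 of Cre- left out as well it was -1.199 ± 0.28 (adjusted p = 0.0871), where 0.326% were. Both settings remove the highest warm Cre- Ucp1 library and the lowest warm BATdKO one. Their outcome is largely fixed by this choice, and these p are no independent support. Dio2 was at -1.43 ± 0.57 without both m6 libraries and was not called (adjusted p = 0.398).

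**Figure D4:**
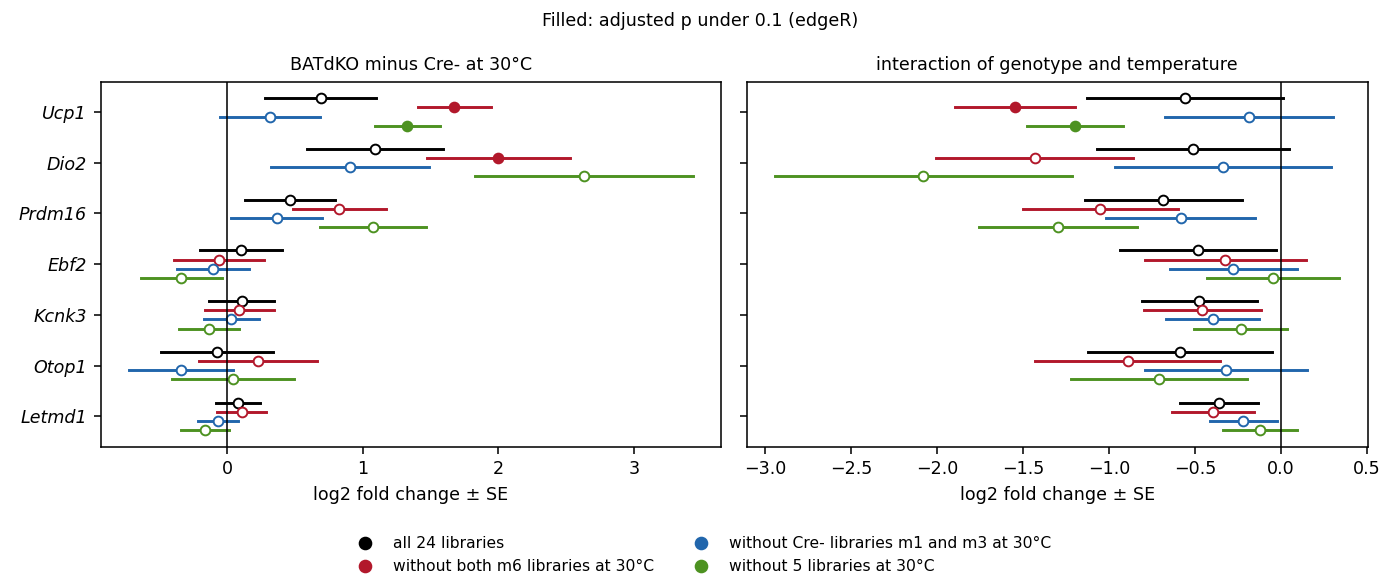
Log2 fold change ± SE of each gene between genotypes at 30°C and for the interaction, with all 24 libraries and under 3 settings that leave out libraries at 30°C; filled points passed the adjusted threshold of 0.1. Ucp1 at 30°C moves from 0.69 with all libraries to 1.67 without both m6, and the Dio2 values rest on few warm counts.

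Within groups the 7 genes varied together from mouse to mouse. After each library had the mean of its group subtracted from log2 CPM, all 21 pairs had a positive Pearson r over the 24 libraries, from 0.128 (Dio2 and Ebf2) to 0.849 (Kcnk3 and Letmd1), with a median of 0.563. Over the 12 cold libraries alone all 21 were positive again, with a median of 0.565 and the highest r of 0.799 for Prdm16 and Otop1. Ucp1 and Dio2 had an r of 0.718 over all 24 libraries but 0.209 over the cold ones, and 0.25 over the 19 libraries left when both m6 and Cre- m1, m3 and m4 at 30°C were omitted. These are descriptions of values that share libraries and their composition, so no test is given.

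The genes most like each of the 7 by this measure were named in the same way, over 24 libraries and again over those 19. Each was picked as 1 of the 3 with the highest r over 24 libraries among all tested genes, so that r is raised by the choice. Over the 12 cold libraries r of these pairs ranged from 0.537 (Dio2 and Cidec) to 0.976 (Kcnk3 and Pfkp). For Ucp1 they were Gpd1, a glycerol phosphate dehydrogenase (r = 0.947 and 0.841), Cox8b, a respiratory chain subunit of brown fat and muscle (0.912 and 0.773), and Prkaca, a catalytic subunit of the cAMP-dependent kinase (0.91 and 0.765). For Dio2 they were Cidec, a lipid droplet protein (0.901 and 0.642), U2surp (0.886 and 0.853) and Arl4a (0.875 and 0.71). For Prdm16 they were Dld, a subunit of mitochondrial dehydrogenase complexes (0.862 and 0.734), Etfrf1 (0.858 and 0.711) and Zfp36l2 (0.847 and 0.727). Ebf2 was most like Clic5 (0.873 and 0.815), Ahcyl1 (0.869 and 0.729) and Spire1 (0.86 and 0.782). Kcnk3 was most like Gprc5b (0.88 and 0.857), Pfkp, a phosphofructokinase (0.879 and 0.862), and Acacb, an acetyl-CoA carboxylase (0.869 and 0.928). The closest to Otop1 were Afg3l2, a mitochondrial protease (0.902 and 0.897), Sh3kbp1 (0.896 and 0.799) and Idh3a, a subunit of isocitrate dehydrogenase (0.89 and 0.803). The closest to Letmd1 were Ltbp2 (0.862 and 0.814), Kcnk3 itself (0.849 and 0.719) and Gpd2, a mitochondrial glycerol phosphate dehydrogenase (0.843 and 0.777).

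Other genes of brown fat were read as 4 further lists in the same fit. Of 17 tested brown fat enzymes and markers, 10 rose in cold Cre- mice and 8 in cold BATdKO, and none fell, where 5.57% and 3.76% of all genes rose; the median log2 fold change was 0.70 and 0.43. Acot11, an acyl-CoA thioesterase, rose in both (3.35 ± 0.30 in Cre-, adjusted p = 3.72e-08, and 2.81 ± 0.31 in BATdKO, adjusted p = 1.25e-06). Bmp8b, a secreted factor of the BMP family, rose by 3.805 ± 0.35 in Cre- (adjusted p = 3.72e-08), and Elovl3, a fatty acid elongase, by 0.69 ± 0.10 in BATdKO (adjusted p = 4.29e-05). At 8°C this list had 1 gene higher and 4 lower in BATdKO, where 0.697% of all genes were higher and 1.12% lower; whether it differed from the set of 7 was not tested. Bmp8b was at 2.36 ± 1.26 CPM in cold BATdKO and 12.7 ± 4.02 CPM in cold Cre- mice (log2 fold change -2.25 ± 0.30, adjusted p = 5.28e-05), S100b, a calcium-binding protein, was lower (-1.77 ± 0.30, adjusted p = 0.00109), and Fabp3, a fatty acid binding protein, was higher (1.42 ± 0.36, adjusted p = 0.0472).

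Of 19 tested regulators of brown fat transcription, 4 rose in cold Cre- mice and 2 in cold BATdKO, and none fell, where 5.57% and 3.76% of all genes rose. Ppargc1a, the coactivator of mitochondrial biogenesis, rose by 1.27 ± 0.16 in Cre- (adjusted p = 3.71e-06) and by 0.95 ± 0.15 in BATdKO (adjusted p = 0.00023). Cebpb, a leucine zipper factor, rose by 0.87 ± 0.14 (adjusted p = 0.000172) and 0.48 ± 0.14 (adjusted p = 0.0475). At 8°C, 1 of the 19 was called, Cebpa (0.25 ± 0.07 higher in BATdKO, adjusted p = 0.0871).

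Of 17 tested genes of thyroid hormone transport, receptors and targets, which stand downstream of or beside Dio2, 3 rose in each genotype and none fell, where 5.57% and 3.76% of all genes rose, with medians of 0.07 and 0.04. Me1, malic enzyme, rose by 1.02 ± 0.12 in Cre- (adjusted p = 1.26e-06) and 0.54 ± 0.11 in BATdKO (adjusted p = 0.00427), and Thrsp, a lipogenic protein, by 0.88 ± 0.12 (adjusted p = 2.67e-05) and 0.60 ± 0.12 (adjusted p = 0.00364). Of 6 tested white and beige fat genes, 1 fell in Cre- and 2 fell in BATdKO, where 3.59% and 3.31% of all genes fell. Lep, the adipokine leptin, decreased by 3.43 ± 0.66 on the log2 scale in Cre- (adjusted p = 0.00125) and by 2.75 ± 0.60 in BATdKO (adjusted p = 0.00608), and Dpt, a matrix protein, decreased by 1.04 ± 0.29 in BATdKO (adjusted p = 0.0361). No gene of the 4 lists was called between genotypes at 30°C or for the interaction in edgeR with all 24 libraries.

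**Figure D5:**
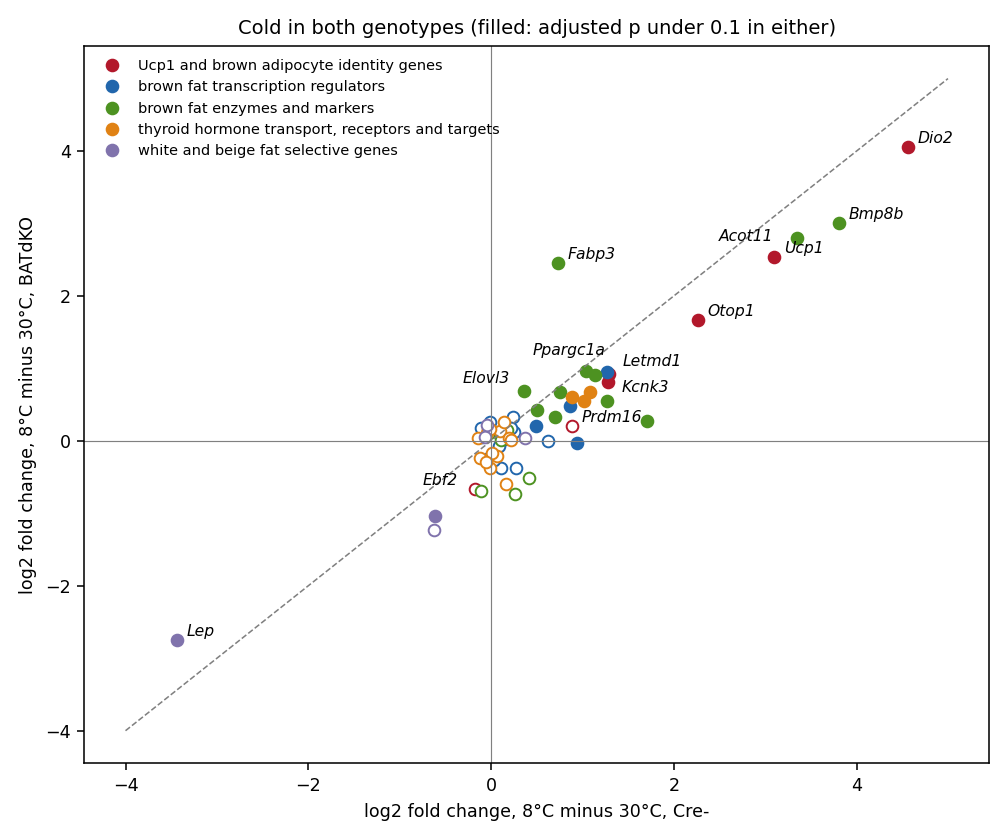
Log2 fold change with cold in Cre- mice (horizontal) against that in mice labelled BATdKO (vertical) for Ucp1 and the brown identity genes and the 4 other lists; filled points were called in at least 1 genotype and the dashed line marks equal change. Dio2 lies farthest from 0 (4.56 and 4.05), and Prdm16 (0.89 and 0.20) and Ebf2 (-0.18 and -0.66) are the open points of the set.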

How the data were processed

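RNA from the BAT of 24 mice was sequenced as 3′ tags. Reads were trimmed (BBDuk), mapped to GRCm38 (STAR) and summarised over genes (Rsubread) by the authors, who deposited raw counts. No scaling had been applied. The paper's methods state that outliers were removed after quality control, and its sequencing figure gives fewer mice per group than were used here. Which libraries were removed is not stated there, and all 24 were kept here. The submitters' processing notes also name DESeq2. The annotation release, strandedness of counting and the filter behind the 12615 genes are not given in the sources used here; 12608 identifiers were matched to symbols.

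Tests used edgeR 4.0.16 (limma 3.58.1) under R 4.3.3: TMM normalization, filterByExpr on the 4 groups (12485 genes kept), and 1 quasi-likelihood model with a mean per group over all 24 libraries. Benjamini-Hochberg adjustment covered every gene tested, and a gene was called at an adjusted p below 0.1, the threshold in the study's methods. The SE of a log2 fold change was obtained as its size over the root of the F statistic. CPM uses the TMM-scaled library size, and log2 CPM a prior count of 2. Total counts ranged from 699703 to 11527643 per library; precision reflects counting error and spread between mice. The Ucp1 share was compared by an exact permutation test, called at an adjusted p below 0.05. The pipeline was tested on simulated data. Alternatives were DESeq2 1.42.0, RLE normalization, no filter, a minimum of 10 for the mean normalized count, robust dispersion, the 2 groups compared alone, unadjusted p below 0.05, the normalized size as denominator of the share, and leaving out each library. The settings that leave out several doubtful libraries at once were chosen after seeing the data. Mouse numbers m1 to m6 pair no mice.

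The set and the lists were chosen with earlier results of these data known. Named genes were every member, both target genes, up to 2 genes per direction with the smallest p among those called in each other list and comparison, and the 3 genes most like each member. Marker lists of progenitors, smooth muscle and macrophages had overlapping sums across all 4 groups (134 to 319, 47.7 to 104 and 154 to 239 CPM over 24 libraries), and 0 of 5 nerve markers were analysed. Gene positions are from GENCODE vM21 (GRCm38), promoter windows from RefSeq.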

Additional observations from a re-analysis of the deposited data

Results flagged for a closer look

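Of 36 sets of 6 libraries (the 7 genes and both target genes in each group), 4 had a library far from the other 5 by Dixon's criterion; chance marks about 1 in 20. Ucp1 was at 548 CPM in Cre- m6 at 30°C, and Tbl1xr1 was at 38.6 CPM in the same library. Tbl1x was at 39.7 CPM, the lowest of its group, in the library labelled BATdKO m6 at 30°C. Dio2 was at 53.2 CPM in the library labelled BATdKO m1 at 8°C, which had the lowest total count of the cold libraries (2738613).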

How the results depend on the processing

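The rise of Ucp1, Dio2, Otop1 and Letmd1 in cold was called in both genotypes under every alternative run, as was that of Kcnk3 in Cre- mice; Kcnk3 in BATdKO was lost in 4 of 24 fits without 1 library. Members called ranged from 5 to 6 in cold Cre- mice, from 4 to 5 in cold BATdKO and from 0 to 2 between genotypes at 30°C when single libraries were left out, and stayed at 0 at 8°C and for the interaction. An unadjusted p below 0.05 called 1 member at 8°C and 1 at 30°C, and 2327, 2145, 1153, 1303 and 1005 genes in all for cold in Cre-, cold in BATdKO, genotype at 8°C, genotype at 30°C and the interaction, against 1143, 883, 227, 0 and 12 adjusted. DESeq2 called 90 genes at 30°C and 51 for the interaction, robust dispersion 21 for the interaction, and the 2 groups compared alone 477 at 8°C; the cause was not tested. Without both m6 libraries at 30°C there were 2 members (Ucp1 and Dio2, the latter kept in the test by its cold counts alone) and 500 genes at 30°C and 1 member and 44 genes for the interaction, and the Ucp1 share differed by 0.0229 percentage points at 30°C. Without Cre- m1 and m3 at 30°C there were 684 genes for cold in Cre-, 353 at 8°C and 25 for the interaction. Without these 4 and Cre- m4 there were 487 genes at 8°C, 1 member and 180 genes at 30°C, and 1 member and 41 genes for the interaction. Single libraries moved all genes called between 791 and 1343 for cold in Cre-, 574 (without BATdKO m4 at 8°C) and 1069 for cold in BATdKO, 138 (without BATdKO m5 at 8°C) and 276 at 8°C, 0 and 369 at 30°C, and 7 and 37 for the interaction. At 30°C they were 369 without Cre- m6, 67 without Cre- m2, 1 without Cre- m4, 47 and 41 without BATdKO m4 and m6 at 30°C, 2 without Cre- m3 at 8°C and 3 without BATdKO m6 at 8°C. For the interaction they were 35 and 32 without Cre- m1 and m6 at 30°C, 37 without Cre- m2 at 8°C, 21 without BATdKO m4 at 30°C, and 7 each without BATdKO m2 at 30°C, Cre- m5 at 8°C and BATdKO m5 at 8°C.

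At 30°C between genotypes the sign of small values turned: Ebf2 (0.10) was at -0.062, -0.11 and -0.34 under the 3 settings in that order and between -0.14 and 0.29 without single libraries. Otop1 (-0.07) was at 0.22 without both m6 and 0.041 without all 5 libraries, and between -0.40 and 0.089 without single ones. Letmd1 (0.08) was at -0.067 without Cre- m1 and m3 and -0.17 without all 5, and between -0.064 and 0.16. Kcnk3 (0.11) was at -0.13 without all 5, and between -0.077 and 0.26. Ebf2 with cold in Cre- ranged from -0.42 to 0.0059. The Ucp1 share differed by 0.00652 percentage points at 8°C (-0.0033 to 0.0168 without single libraries), by 0.0115 at 30°C (0.0084 to 0.0187), and by 0.118 to 0.139 and 0.120 to 0.129 for cold in Cre- and BATdKO. Few counts limit Dio2 when warm and Prdm16 and Ebf2 throughout. No paired analysis was possible because the mouse numbers pair no mice between groups.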
